A study of Mus musculus with 30 samples.

Results

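A set of 10 genes known for bone marrow stroma and endothelium was followed by name through count tables of sorted blood progenitors: Stab2, Pdgfrb, Cxcl12, Lepr, Kdr, Cdh5, Pecam1, Col1a1, Kitl and Eng, out of 55471 genes in each table. The rule that picks their rows is the gene name, and the names themselves were chosen with earlier results of these data known. RNA sequencing compared C57BL/6 mice given MTP10-HDL, a high-density lipoprotein nanoparticle loaded with a muramyl tripeptide, with mice given phosphate-buffered saline (PBS). From hematopoietic stem cells (HSCs) there were 7 libraries of PBS mice and 6 of MTP10-HDL mice, and from multipotent progenitors (MPPs) 2 and 3. The sorted cells of 4 mice made up each library. For the MPP mice the labels give 3 injections in 5 days, killing on the day after the last, and cells taken from femurs and tibias, depleted of lineage-positive cells with magnetic beads and then sorted by flow cytometry; for the HSC mice the sources used here give no schedule. The labels give neither age, sex nor dose, and the 12 ATAC-seq samples of the series were not analysed here.

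The marrow niche is the set of non-blood cells that house stem cells. Perivascular stromal cells that carry the leptin receptor and PDGF receptors, together with sinusoidal endothelium, supply the chemokine Cxcl12 and stem cell factor (Kitl), which progenitors read through Cxcr4 and Kit. Endothelium and blood stem cells share an embryonic origin, so surface proteins such as Pecam1 and endoglin (Eng) are also found on the stem cells themselves, whereas Cdh5, Kdr, Stab2, Lepr and Col1a1 are in the adult marrow best known from vessel, stromal or bone-forming cells.

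Expression levels below are in CPM, read counts divided by each library's total and its TMM factor, and a fold change is MTP10-HDL over PBS on the log2 scale with its standard error (SE). Total counts were 4064155 to 7879858 in the HSC libraries and 11252479 to 32769369 in the MPP libraries, where both PBS libraries were shallower than all 3 MTP10-HDL libraries. Because each library is a pool of mice, p-values measure the spread between pools, and in bulk RNA fewer cells of a type and less RNA per cell cannot be told apart. The kits differed between HSCs and MPPs and the tables hold no transcript lengths, so levels were not compared between the cell types or between genes. Kit and Procr were counted in every library of both cell types, which shows neither how pure a sort was nor which cell type it held. Kit, the stem cell factor receptor, was at 327 to 729 CPM in HSCs and 310 to 517 CPM in MPPs. Procr, a stem cell surface protein, was at 16.2 to 26.5 CPM in HSCs and 27.8 to 60.1 CPM in MPPs.

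The upstream sequences of Stab2, the member with the lowest p in MPPs among those that have a window, and of Eng, which held 196 to 3874 counts in every library, are shown as examples of the regulatory DNA of this gene group. Each run is the 250 bases before a listed transcript start (GRCm38.p6), 5′ to 3′ on the gene's own strand. That start need not be the outer end of the gene's RefSeq span. The Stab2 window partly overlaps the Stab2 span (chr10:86841194-87008038), with its marked match in the overlap, and the Eng window ends where the Eng span begins. Windows of Kdr, Kitl and Lepr also lie partly or wholly within their spans. Capitals mark GGAAG or its reverse complement CTTCC, a form of the sequence that ETS factors such as Fli1 and Erg recognise. Other forms were neither marked nor counted.
Stab2 (chr10:87007943-87008192, minus strand): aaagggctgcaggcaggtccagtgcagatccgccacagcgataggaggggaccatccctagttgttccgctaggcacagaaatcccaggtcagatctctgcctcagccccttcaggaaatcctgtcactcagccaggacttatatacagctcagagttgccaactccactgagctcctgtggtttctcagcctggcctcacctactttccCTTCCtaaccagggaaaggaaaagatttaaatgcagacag
Eng (chr2:32646345-32646594, plus strand): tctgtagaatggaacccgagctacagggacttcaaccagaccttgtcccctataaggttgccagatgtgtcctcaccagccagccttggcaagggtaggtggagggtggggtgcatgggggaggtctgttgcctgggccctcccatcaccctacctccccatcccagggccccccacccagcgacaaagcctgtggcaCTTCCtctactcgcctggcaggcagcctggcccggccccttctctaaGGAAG
The Stab2 window held 1 match of this form and the Eng window 2. Of the 7 windows found for 6 members, 6 held GGAAG on either strand, against 64.1% of all 32851 windows of this length. None of the 7 held GATAA on either strand, a form of the sequence bound by GATA factors, against 22.6% of all windows. Shorter forms such as GATA were not counted. With no GATAA match, none overlapped a GGAAG match, and a match is a description of letters, not of binding.

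In HSCs 8 of the 10 members passed the filter on low counts, and Lepr and Kitl did not. No member passed an FDR of 0.05 by edgeR's quasi-likelihood test, and neither did any of the 16631 genes tested (0%). Below an unadjusted p of 0.05 were 3 of the 8, against 1469 of all genes tested (8.83%). Pdgfrb was the 1 on the higher side, against 4.36% of genes, and Stab2 and Col1a1 were the 2 on the lower side, against 4.47%. In no member did the groups separate completely, which 0.307% of genes did. DESeq2 called 92 genes and limma voom none, and neither called a member. The median fold change was 0.02 for the 8 members and -0.02 for all genes tested.

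In MPPs the same 8 members were tested. No member passed an FDR of 0.05 by edgeR, and neither did any of the 15449 genes tested (0%). Below an unadjusted p of 0.05 were 2 of the 8, against 963 of all genes tested (6.23%): Pdgfrb on the higher side, against 2.17%, and Stab2 on the lower side, against 4.06%. The groups did not overlap for 5 of the 8 (Stab2, Pdgfrb, Cxcl12, Pecam1 and Eng), but with 3 libraries against 2 this held for 24.7% of all genes tested. Of the 5, Cxcl12 passed the filter only through its PBS libraries, which fixed its lack of overlap in advance. DESeq2 called 180 genes, among them Stab2 (adjusted p = 0.00669) and Pdgfrb (adjusted p = 0.0293), and limma voom called none. The median fold change was -0.64 for the 8 members and 0.02 for all genes tested. That member median lies between Kdr (-0.75, SE 1.48) and Col1a1 (-0.53, SE 0.90). These had 0 to 29 and 10 to 49 counts per library, so the median does not show a shared fall.

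**Figure D1:**
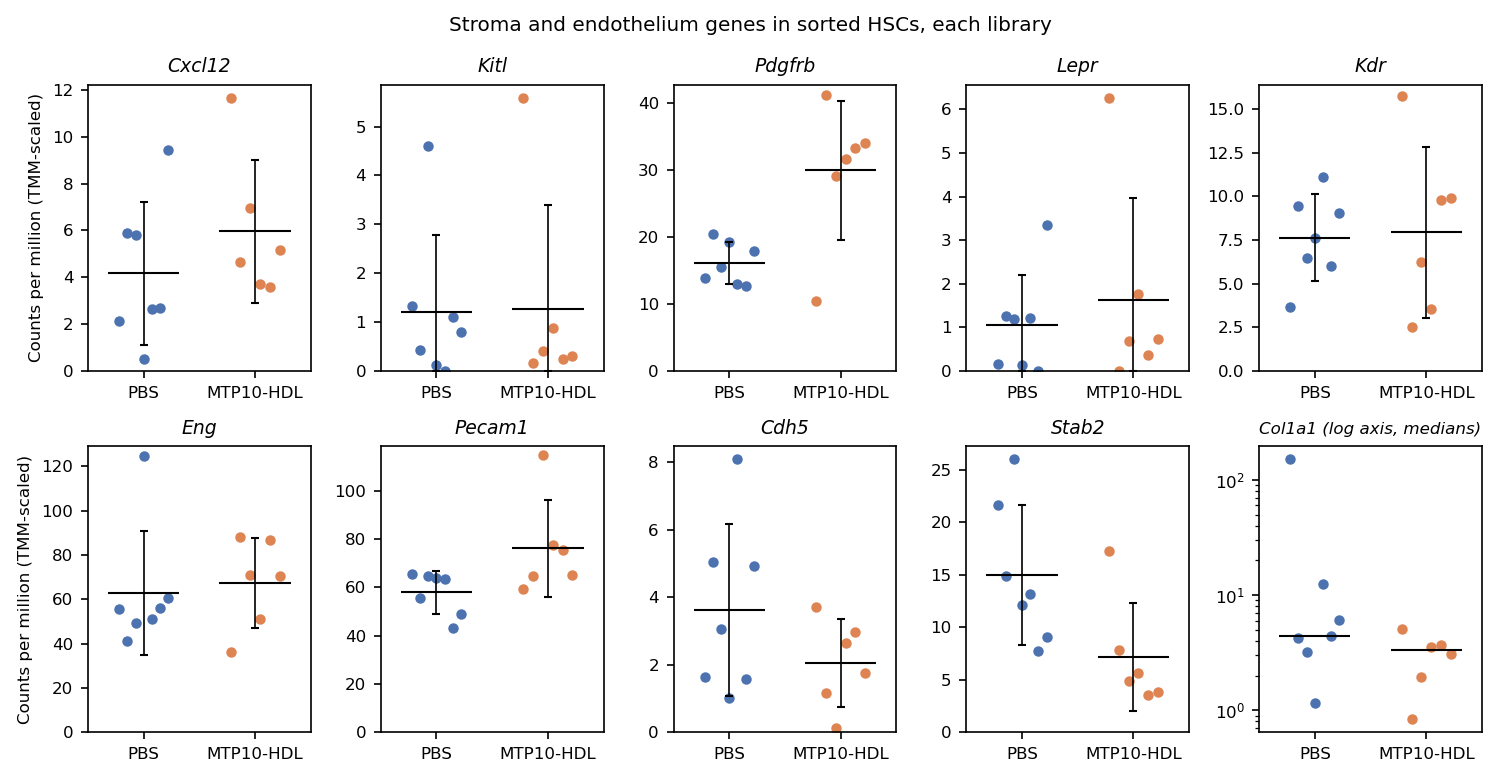
CPM of the 10 genes in each of the 7 PBS and 6 MTP10-HDL HSC libraries (points), with the mean and SD of each group (lines and bars, bars cut at 0); Col1a1 is on a log axis with medians. Pdgfrb is at 29.0 to 41.2 CPM in 5 MTP10-HDL libraries and at 10.5 in the other, and Col1a1 is at 152 CPM in PBS 1 alone.

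**Figure D2:**
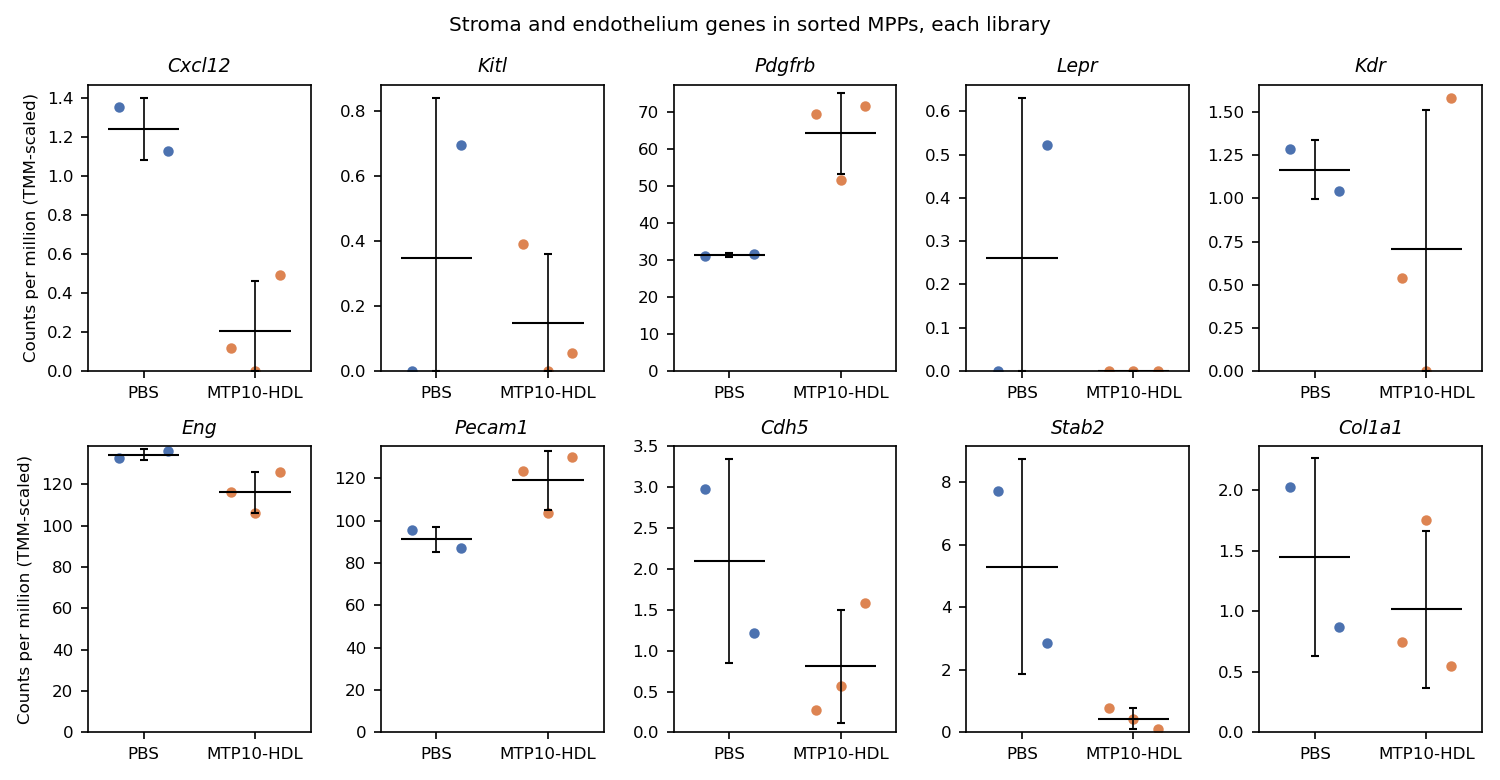
CPM of the same genes in each of the 2 PBS and 3 MTP10-HDL MPP libraries (points), with mean and SD (lines and bars, bars cut at 0). Pdgfrb points lie at 51.5 to 71.4 CPM with MTP10-HDL and 30.9 to 31.7 with PBS, and Stab2 points at 0.109 to 0.780 and 2.87 to 7.72.

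The ligands were scarce. Cxcl12 (ENSMUSG00000061353, chr6:117168535-117181368), the chemokine that holds progenitors in the marrow, ranged in HSCs from 0.515 through a median of 2.7 to 9.45 CPM with PBS and from 3.59 through 4.92 to 11.7 CPM with MTP10-HDL. All 6 MTP10-HDL libraries lay above the PBS median, but the ranges overlapped, and the fold change of 0.43 (SE 0.53) had an adjusted p of 0.812 by edgeR. In MPPs Cxcl12 was at 1.35 and 1.13 CPM in the PBS libraries and at 0.120, 0 and 0.491 CPM in the MTP10-HDL libraries, on 20, 13, 4, 0 and 9 counts. In MPPs only the PBS libraries brought Cxcl12 over the filter on low counts. The MPP groups did not overlap, but that filter fixed this in advance. The fold change there was -2.66 (SE 1.45, adjusted p = 0.843 by edgeR).

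Kitl (ENSMUSG00000019966, chr10:100015615-100100416), the membrane-bound and secreted ligand of Kit, stayed below the filter in both tables. Its HSC levels ran from 0 through 0.788 to 4.60 CPM with PBS and from 0.167 through 0.356 to 5.58 CPM with MTP10-HDL. Single libraries held most of its reads: 27 of 49 PBS counts were in PBS 3 and 33 of 46 MTP10-HDL counts in MTP10-HDL 1. In MPPs it had 0 and 8 counts in the PBS libraries and 13, 0 and 1 in the MTP10-HDL libraries, so no difference was detectable at this depth.

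Among the receptors, Pdgfrb (ENSMUSG00000024620, chromosome 18), the PDGF receptor of pericytes and other perivascular cells, had the lowest p of the members in both cell types. HSC levels ran from 12.7 through 15.5 to 20.4 CPM with PBS and from 10.5 through 32.5 to 41.2 CPM with MTP10-HDL. The 5 other MTP10-HDL libraries (29.0 to 41.2 CPM) lay above every PBS library, whereas MTP10-HDL 1 lay below every one. The group means were 16.1 ± 3.11 CPM (SD, n = 7) and 29.9 ± 10.4 CPM (SD, n = 6). The fold change was 0.83 (SE 0.25), with an unadjusted p of 0.00398 and an adjusted p of 0.369 by edgeR. Without MTP10-HDL 1 it was 1.01, with an unadjusted p of 4.52e-05 and an adjusted p of 0.126.

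In MPPs the separation of Pdgfrb was complete. It was at 30.9 and 31.7 CPM in the PBS libraries and at 69.5, 51.5 and 71.4 CPM in the MTP10-HDL libraries, on 364 to 2315 counts. Its fold change was 1.01 (SE 0.23), with an unadjusted p of 0.00273 and an adjusted p of 0.399 by edgeR. Leaving out 1 library at a time gave fold changes of 0.92 to 1.15 in MPPs and 0.73 to 1.01 in HSCs. The test of the difference between the responses gave 0.20 (SE 0.44, unadjusted p = 0.653) for MPP minus HSC, with an adjusted p of 1.

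Lepr (ENSMUSG00000057722, chr4:101717137-101815352), the leptin receptor that marks the main perivascular niche cells, was hardly detected. In HSCs it ranged from 0 through 1.19 to 3.35 CPM with PBS and from 0 through 0.716 to 6.26 CPM with MTP10-HDL, and 37 of its 60 MTP10-HDL counts were in MTP10-HDL 1. In MPPs 6 counts in PBS 3 were the only ones. The 3 MTP10-HDL libraries and PBS 2 held 0 counts, which allows up to 0.0900, 0.107, 0.164 and 0.203 CPM in them (3 counts each, counting error only), so no fold is given.

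Kdr (ENSMUSG00000062960, chr5:75932827-75979072), the main signalling receptor for VEGF on endothelium, did not separate the groups. HSC levels of Kdr ran from 3.64 through 7.60 to 11.1 CPM with PBS and from 2.5 through 8.01 to 15.7 CPM with MTP10-HDL, where MTP10-HDL 2 was the lowest and MTP10-HDL 1 the highest of all libraries. Its fold change was -0.0065 (SE 0.41, adjusted p = 0.998 by edgeR). In MPPs it was at 1.29 and 1.04 CPM with PBS and at 0.540, 0 and 1.58 CPM with MTP10-HDL, with a fold change of -0.75 (SE 1.48, adjusted p = 0.964).

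Eng (ENSMUSG00000026814, chr2:32646595-32682669), the TGF-beta family co-receptor of endothelium that is also known from stem cells, was well counted. In HSCs it ranged from 41.2 through 55.7 to 125 CPM with PBS and from 36.4 through 70.8 to 88.2 CPM with MTP10-HDL. PBS 4 was the highest library and MTP10-HDL 1 the lowest, and the fold change was 0.04 (SE 0.24, adjusted p = 0.963 by edgeR). In MPPs Eng was at 133 and 136 CPM with PBS and at 116, 106 and 126 CPM with MTP10-HDL. The MPP groups lay close and did not overlap, with a fold change of -0.23 (SE 0.19, adjusted p = 0.893).

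Of the adhesion molecules of endothelial junctions, Pecam1 (ENSMUSG00000020717, chr11:106654213-106715281) had a higher mean with MTP10-HDL in both cell types without passing. Its range in HSCs was from 43.2 through 63.3 to 65.5 CPM with PBS and from 59.4 through 70.2 to 115 CPM with MTP10-HDL. Of the MTP10-HDL libraries, 3 lay above every PBS library, MTP10-HDL 3 farthest. The fold change was 0.33 (SE 0.16), with an unadjusted p of 0.0525 and an adjusted p of 0.564 by edgeR. In MPPs Pecam1 was at 95.3 and 87.0 CPM with PBS and at 123, 103 and 130 CPM with MTP10-HDL, with a fold change of 0.36 (SE 0.20, adjusted p = 0.853).

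Cdh5 (ENSMUSG00000031871, chr8:104101613-104144504), the vascular endothelial cadherin, had few reads. In HSCs it ranged from 1.03 through 3.07 to 8.09 CPM with PBS and from 0.139 through 2.21 to 3.72 CPM with MTP10-HDL, and 5 of 6 MTP10-HDL libraries lay below the PBS median. The fold change was -0.88 (SE 0.64, adjusted p = 0.684 by edgeR). In MPPs Cdh5 was at 2.98 and 1.22 CPM with PBS and at 0.270, 0.572 and 1.58 CPM with MTP10-HDL. The fold change there was -1.41 (SE 0.97, adjusted p = 0.875), and the ranges overlapped.

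Stab2 (ENSMUSG00000035459, chr10:86841194-87008038), the scavenger receptor by which sinusoidal endothelium takes up hyaluronan and other ligands, was lower with MTP10-HDL in most libraries of both tables. Across HSC libraries it ran from 7.78 through 13.1 to 26.1 CPM with PBS and from 3.59 through 5.26 to 17.3 CPM with MTP10-HDL. Of the MTP10-HDL libraries, 4 (3.59 to 5.65 CPM) lay below every PBS library, MTP10-HDL 2 (7.84 CPM) lay just above the lowest, and MTP10-HDL 1 lay among the high PBS libraries. The group means were 15.0 ± 6.66 CPM (SD, n = 7) and 7.17 ± 5.17 CPM (SD, n = 6). The fold change was -1.11 (SE 0.40), with an unadjusted p of 0.0119 and an adjusted p of 0.466 by edgeR. Without MTP10-HDL 1 it was -1.60, with an unadjusted p of 0.000251 and an adjusted p of 0.174. Leaving out each library in turn gave fold changes of -1.60 to -0.92, with unadjusted p up to 0.0356 and adjusted p up to 0.659 by edgeR.

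In MPPs Stab2 was at 7.72 and 2.87 CPM in the PBS libraries and at 0.780, 0.429 and 0.109 CPM in the MTP10-HDL libraries. These values rest on 114 and 33 counts in the shallower PBS libraries and on 26, 12 and 2 counts in the deeper MTP10-HDL libraries, and the groups did not overlap. The fold change was -3.56 (SE 0.84), with an unadjusted p of 0.00319 and an adjusted p of 0.421 by edgeR. Without PBS 2 it was -2.72, with an unadjusted p of 0.0578. The difference between the responses, MPP minus HSC, was -2.40 (SE 0.82, unadjusted p = 0.00767), with an adjusted p of 1.

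Col1a1 (ENSMUSG00000001506, chr11:94936224-94953042), the main collagen chain of bone, turned on 1 library. PBS 1 held 919 counts of it (152 CPM), whereas the other PBS libraries lay between 1.16 and 12.5 CPM and the MTP10-HDL libraries between 0.834 and 5.08 CPM. The fold change in HSCs was -3.11 (SE 0.98, unadjusted p = 0.00545, adjusted p = 0.380 by edgeR). Without PBS 1 it was -0.87, with an unadjusted p of 0.136. DESeq2, which put 25 in place of the count of 919, gave -0.86 (adjusted p = 0.567). In MPPs Col1a1 was at 2.03 and 0.870 CPM with PBS and at 0.750, 1.75 and 0.545 CPM with MTP10-HDL, with a fold change of -0.53 (SE 0.90, adjusted p = 0.956 by edgeR).

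**Figure D3:**
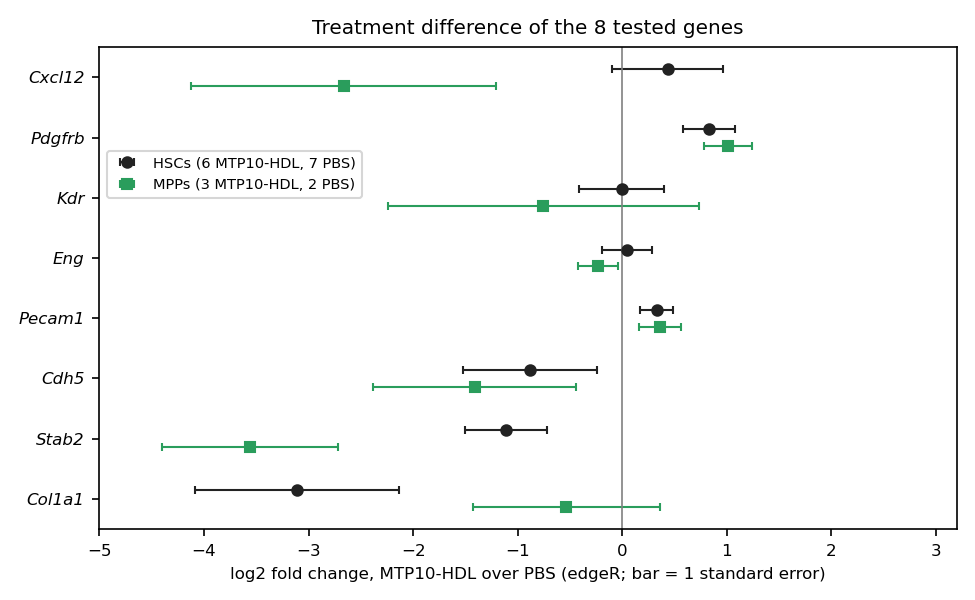
log2 fold change of MTP10-HDL over PBS (x axis) for the 8 genes tested, in HSCs (circles) and MPPs (squares), with 1 SE to each side. Pdgfrb lies at 0.83 and 1.01 and Stab2 at -1.11 and -3.56, and none of the estimates passed an FDR of 0.05.

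Whether the responses differ between the cell types was tested in 1 fit over both tables. Of 24470 genes tested, 1 was called (0.00409%), the predicted gene Gm43360, which is no member and is named after its value was seen. Below an unadjusted p of 0.05 were 3 of the 10 members, Stab2, Cxcl12 and Lepr, against 3.86% of genes. Cxcl12 had a difference, MPP minus HSC, of -3.09 (SE 1.20, unadjusted p = 0.0169), and for Lepr the estimate rests on libraries with 0 counts. All 10 had an adjusted p of 1.

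The members did not share 1 pattern across HSC libraries. MTP10-HDL 1 was the highest library for Cxcl12, Lepr, Kdr and Kitl and the lowest for Pdgfrb and Eng, so 6 of the 10 genes had an extreme value there. Over the 13 libraries, with each group centred on its mean, Pearson's r of log2 CPM between pairs of the 8 tested members ran from -0.66 (Cxcl12 and Eng) to 0.58 (Pdgfrb and Eng). Stab2 and Pdgfrb had r = -0.58, and Kdr and Cdh5 had 0.51. These are descriptions over 13 libraries that share a preparation, of 28 pairs in all.

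Macrophage markers were high in some of the libraries where members were extreme. The marker list was chosen with earlier results of these data known. The summed CPM of 11 macrophage markers ran from 148 through 407 to 2812 in the PBS libraries of HSCs and from 171 through 292 to 2892 in the MTP10-HDL libraries, with none of the 11 at 0 in any HSC library. MTP10-HDL 1 (2892), PBS 1 (2812), PBS 3 (1972) and MTP10-HDL 3 (973) stood above the others, which lay at 148 to 418. The first 3 of these also had the highest Stab2 levels of the HSC libraries, at 17.3, 21.7 and 26.1 CPM, and MTP10-HDL 3 was at 4.86. Pdgfrb was at 10.5, 13.9, 15.5 and 29.0 CPM in the same 4 libraries. In MPPs the sum was 130 and 152 with PBS and 80.4, 63.9 and 129 with MTP10-HDL. Siglec1 was at 0 counts in 1 MPP library, MTP10-HDL 2. Of the 11 markers, 4 lay lower in MPPs at an unadjusted p below 0.05, against 4.06% of all genes tested, led by Hmox1 (-1.71, adjusted p = 0.507 by edgeR) and Mrc1 (-1.85, adjusted p = 0.754). In HSCs none of the 11 did, the median fold change was 0.01, and the lowest p values were those of Cd163 (-1.08, adjusted p = 0.575) and Csf1r (1.19, adjusted p = 0.590). The median in MPPs was -0.99. The part of these cells in the Stab2 and Pdgfrb differences was not tested. Without MTP10-HDL 1 and PBS 1, which leaves PBS 3 and MTP10-HDL 3 in place, the HSC fold changes were -1.50 (Stab2, adjusted p = 0.216 by edgeR) and 0.97 (Pdgfrb, adjusted p = 0.167).

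**Figure D4:**
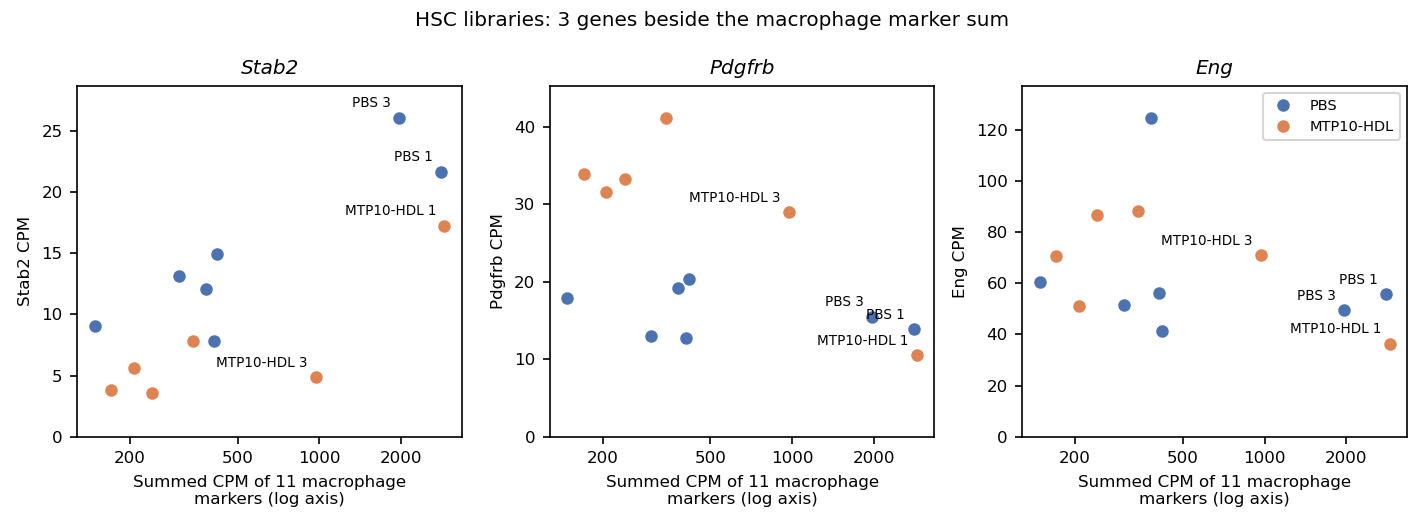
Stab2, Pdgfrb and Eng CPM (y axes) against the summed CPM of 11 macrophage markers (log x axis) in the 13 HSC libraries, with the 4 libraries of the highest sum named. MTP10-HDL 1, PBS 1 and PBS 3 hold both high marker sums and the highest Stab2 levels, while their Pdgfrb levels are 10.5 to 15.5 CPM.

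Library quality was set beside the same genes. The HSC libraries were divided by the number of detected genes and the share of ribosomal RNA, which here leaves out mitochondrial ribosomal RNA. Mitochondrial ribosomal RNA made up 12.4% (MTP10-HDL 6) to 27.9% (MTP10-HDL 2) of HSC counts and was not used for the division. Values of log2(CPM + 1) were averaged within each division, which holds 2 or 3 PBS and 2 MTP10-HDL libraries. Stab2 was lower with MTP10-HDL in all 3 divisions, with differences of -1.26 in the libraries with the fewest detected genes, -0.91 in those with the most ribosomal RNA and -1.19 in the rest. Pdgfrb differed by 1.04, 0.04 and 1.17 in the same order, and MTP10-HDL 1 is in the division with 0.04. In MPPs depth, the share of immunoglobulin counts (9.35% with PBS and 3.75% with MTP10-HDL on average) and the share of ribosomal RNA (1.36% and 0.759%) did not overlap between the groups, and their part in the MPP differences was not tested. Both shares had an exact permutation p of 0.1, two-sided, the smallest that 3 libraries against 2 can give.

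Other genes of the niche were read from lists, which were chosen with earlier results of these data known. Of 27 ligands, receptors and partners of the members, 23 were tested in HSCs and 22 in MPPs, and none passed an FDR of 0.05 in either. Below an unadjusted p of 0.05 in HSCs were 2 of the 23, against 8.83% of all genes tested. Both were higher, against 4.36% of genes: Cxcr4, the receptor of Cxcl12, and Ptpn6, a phosphatase that damps Kit signalling. Mean Cxcr4 was 94.9 ± 22.3 CPM in the PBS group (SD, n = 7) and 144 ± 41.3 CPM in the MTP10-HDL group (SD, n = 6), with a fold change of 0.54 (SE 0.18) and an adjusted p of 0.428 by edgeR. Ptpn6 had a fold change of 0.44 (SE 0.17, adjusted p = 0.497).

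Of the 22 partners tested in MPPs, 1 was higher and 3 lower at an unadjusted p below 0.05, against 2.17% and 4.06% of all genes tested. Cxcr4, the higher, was at 124 and 154 CPM with PBS and at 255, 273 and 278 CPM with MTP10-HDL. The Cxcr4 groups did not overlap, which held for 24.7% of all genes tested. Its fold change was 0.93 (SE 0.21, adjusted p = 0.395 by edgeR). Vegfa, the ligand of Kdr, lay lower with a fold change of -0.99 (SE 0.24, adjusted p = 0.453). Also lower at an unadjusted p below 0.05 were Pdgfb, a ligand of Pdgfrb, at -2.61 and Nrp2, a VEGF co-receptor, at -2.35, both named after their values were seen. The median fold change of the partners was 0.12 in HSCs and -0.25 in MPPs.

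Of 25 markers best known from endothelium, 17 were tested in HSCs (median fold change -0.28) and 13 in MPPs (median -0.27), and none passed. Sox17 and Nos3, transcription factor and nitric oxide synthase of endothelium, had 0 counts in all 5 MPP libraries. The lowest p values in HSCs were those of Sox18, an endothelial transcription factor, with a fold change of -2.03 (unadjusted p = 0.0164, adjusted p = 0.490 by edgeR), and Fabp4, a fatty acid binding protein, at -1.84 (adjusted p = 0.582). In MPPs they were those of Tie1, an endothelial receptor kinase, at -0.78 (unadjusted p = 0.00610, adjusted p = 0.521), and Fabp4 at -1.60 (adjusted p = 0.811). Of 15 genes that endothelium and stem cells share, all were tested in both tables, with medians of -0.0022 in HSCs and -0.30 in MPPs and none called. Fli1 (0.28, adjusted p = 0.495) and Gata2 (0.36, adjusted p = 0.653) had the lowest p in HSCs, and Procr (-0.88, adjusted p = 0.426) and Robo4 (-0.51, adjusted p = 0.781) in MPPs.

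Of 22 mesenchymal stroma markers, 15 were tested in HSCs (median -0.54) and 10 in MPPs (median 0.09), and none passed. Their summed CPM in HSCs was highest in PBS 1 (1158), PBS 3 (903) and MTP10-HDL 1 (801), and Vcam1, which is also on the macrophage list, made up 842, 663 and 543 CPM of it. Lowest p values were those of Nes (-0.75, adjusted p = 0.639 by edgeR) and Pdgfra (-1.07, adjusted p = 0.645) in HSCs, and of Lpl, a lipase (-3.21, adjusted p = 0.397), and Thy1 (0.88, adjusted p = 0.688) in MPPs. Ngfr, Grem1, Ebf3 and Rgs5 had 0 counts in all 5 MPP libraries.

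Of 21 genes of bone-forming cells and matrix, 13 were tested in HSCs (median -0.44) and 10 in MPPs (median -0.35), and none passed. PBS 1, the library that set the Col1a1 value, was also the highest for its partner chain Col1a2, at 46.3 CPM, 4.80 times the next library. Col5a1 (-0.97, adjusted p = 0.562 by edgeR) and Col1a2 (-1.01, adjusted p = 0.592) had the lowest p in HSCs, and Col1a2 (-1.77, adjusted p = 0.725) and Postn (-0.83, adjusted p = 0.811) in MPPs. Sp7 and Bglap, markers of bone-forming cells, had 0 counts in all 5 MPP libraries.

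Lists of other blood cells were set beside the members in the same way, and no gene of them passed. These lists were chosen with earlier results of these data known, and the genes of a list share the same libraries. The shares below are therefore a description and not independent evidence. In HSCs 6 of 9 tested erythroblast genes, 5 of 8 B and plasma cell genes and 9 of 15 immediate early genes lay lower at an unadjusted p below 0.05, against 4.47% of all genes tested, with median fold changes of -1.32, -1.59 and -1.42. The erythroblast sums did not overlap between the HSC groups, at 574 to 1002 CPM with PBS and 319 to 565 with MTP10-HDL. Some PBS libraries stood high in the other lists. PBS 2 had a B and plasma cell sum of 5357 CPM against a PBS median of 337. The immediate early sum in HSCs was 2385, 2521 and 3378 CPM in PBS 2, PBS 3 and PBS 4. It was 181 to 795 CPM in the other PBS libraries and 317 to 859 CPM with MTP10-HDL, and PBS 4 was the highest library for 10 of 15 immediate early genes. In MPPs 6 of 10, 3 of 10 and 7 of 14 tested genes lay lower, against 4.06% of all genes tested, with medians of -2.01, -0.33 and -2.04. The immediate early sum there was 3371 CPM in PBS 3 and 389 in PBS 2, and 282, 904 and 349 with MTP10-HDL, so PBS 2 lay within the MTP10-HDL range. PBS 3 was the highest MPP library for 14 of the 15 genes. At the same threshold 4 of 12 stem cell identity genes lay lower in MPPs and none in HSCs. The part of these genes' cells in the members' values was not tested. Medians in HSCs and MPPs were 0.03 and -0.85 for platelet genes, 0.81 and 0.20 for neutrophil genes, -0.0067 and -0.55 for stem cell identity genes and 0.09 and 0.30 for multipotent progenitor genes.

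The genes whose HSC pattern was most like that of a member were found by Pearson's r of log2 CPM over the 13 libraries, centred within treatment. Stab2 was closest to P2ry13 (r = 0.92), Tmf1 (0.92) and Elmo2 (0.91), and without the 2 libraries farthest from its median these were 0.79, 0.85 and 0.84. Pdgfrb was closest to AC115752.1 (0.87), Psph (0.86) and Smyd5 (0.86), and without its 2 farthest libraries these were 0.69, 0.64 and 0.82. Cxcl12 was closest to Xirp2, Gm42648 and Prune2 (0.90 to 0.92), Kdr to Olfr354, Cyp4f13 and Gm43623 (all 0.89), and Cdh5 to Gm15894, Draxin and Vmn1r18 (0.95 to 0.98). Pecam1 was closest to Siah1b, Kansl2 and Tmub2 (0.88 to 0.91), Eng to Nfix, Gse1 and Pole (0.90 to 0.91), and Col1a1 to Rinl, Ccne1 and mt-Nd6 (0.88 to 0.91). No member was among the 3 closest genes of another. For mt-Nd6 and Col1a1 r was 0.46 without PBS 1 and PBS 4. These are the highest of 16631 genes, given as a description.

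Some members overlap other annotated genes, and the strand setting of the counting is not given in the sources used here. Stab2 overlaps the noncoding Gm16271 and the pseudogene Gm16270, which held 28 and 14 counts in all HSC libraries against 880 for Stab2, and 0 in MPPs. Cdh5 overlaps Gm29682, with 15 counts against 216 in HSCs and 0 in MPPs. Eng holds Mir1954, with 13 counts in HSCs and 0 in MPPs, and overlaps the end of Fpgs, with 753 counts against 5432 in HSCs and 3313 against 12682 in MPPs, and Kdr overlaps the noncoding Gm32727.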

How the data were processed

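The authors deposited raw read counts per Ensembl gene, 1 table for HSCs and 1 for MPPs, with 55471 genes each. The HSC library kit amplified cDNA, per the labels' protocols, while the MPP kit selected poly-A RNA and kept strand. The submitters' processing notes list CASAVA 1.8.2 and STAR 2.5.2b for the HSC samples, list STAR 2.7.2a, DESeq2 1.24 and R 3.6.1 for the MPP samples, and name mm10 as the build. No counting tool, annotation or strand setting is named in the sources used here. PBS columns of the HSC table run from 1 to 7 where the labels number 1 sample 8, so column 7 was used as a PBS library without a number of its own.

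EdgeR 4.0.16 (R 4.3.3) was fitted to each table on its own (TMM, filterByExpr, quasi-likelihood F test, Benjamini-Hochberg adjustment over all genes tested, FDR threshold 0.05), and a joint fit of 4 group means tested the difference between responses. Log2 CPM used a prior count of 2. Alternatives were RLE factors, DESeq2 1.42.0, limma 3.58.1 voom, no filter or a mean of at least 10 CPM, leaving out libraries, blocks, and removal of immunoglobulin, ribosomal and mitochondrial genes. The fits were tested on simulated counts with a fixed spread that was not matched to these libraries. Only better counted genes were changed there, so the simulation does not cover the sparse members. No 2 libraries were identical. Precision in MPPs is limited by having 2 PBS pools.

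All 10 members are named. From each other list the rule named up to 4 genes past the FDR, or else the 2 of smallest unadjusted p, and for each tested member the 3 genes most like it in HSCs; for the lists of other blood cells, identity and immediate early genes only counts and medians are given. Members and lists were chosen with earlier results of these data known. All 10 identifiers carried the same symbol in a separate name table, and positions are from RefSeq (GRCm38.p6).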

Additional observations from a re-analysis of the deposited data

Results flagged for a closer look

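Of 20 groups of HSC libraries examined (10 genes, 2 treatments), 8 held a library that stood apart from the rest of its group by Dixon's ratio at the 95% level. The nominal rate of 1 in 20 assumes normally distributed values and independent groups. CPM reached 0 for Lepr and Kitl and all 10 genes share the same libraries, so the 8 cannot be judged against that rate. MTP10-HDL 1 stood apart for Stab2 (17.3 CPM, group median 5.26), Lepr (6.26 CPM, median 0.716) and Kitl (5.58 CPM, median 0.356). The other 5 were Lepr in PBS 7 (3.35 CPM, median 1.19), Kitl in PBS 3 (4.60 CPM, median 0.788), Col1a1 in PBS 1 (152 CPM, median 4.45), Eng in PBS 4 (125 CPM, median 55.7) and Pecam1 in MTP10-HDL 3 (115 CPM, median 70.2). All 8 were high values.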

How the results depend on the processing

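No member was called in HSCs under any alternative, and in MPPs 2 (Stab2 and Pdgfrb) were called by DESeq2 and 2 with no filter on low counts (adjusted p = 0.000842 and 0.0196). Over all alternatives in MPPs, those without 1 library included, the adjusted p ran from 0.000842 to 1.00 for Stab2 and from 0.0196 to 1.00 for Pdgfrb. Genes called in HSCs, 0 as reported, numbered 92 with DESeq2, 44 with no filter and 0 to 1 without 1 library each. Genes called in MPPs, 0 as reported, numbered 180 with DESeq2, 345 with no filter and 0 to 17 without 1 library each (17 without PBS 3); the cause was not tested. Genes with a different response in the cell types numbered 4 with no filter instead of 1. Stab2, Pdgfrb, Pecam1 and Col1a1 kept their sign in HSCs under the 22 alternatives run for them, and Cxcl12 and Cdh5 under 21. Kdr in HSCs turned from -0.0065 to 0.063 with no filter and ran from -0.32 to 0.19 without 1 library each, above 0 without MTP10-HDL 2, 3 or 4 or PBS 2, 5 or 7. Eng in HSCs turned from 0.04 to -0.0091 at a mean of at least 10 CPM and ran from -0.035 to 0.27 without 1 library each, below 0 without MTP10-HDL 2 or 5 or PBS 2 or 3. Col1a1 in MPPs, at -0.53, ran from -1.18 to 0.17 without 1 library each, above 0 without PBS 2. The setting without MTP10-HDL 1 and PBS 1 was added after seeing the data. At a mean of at least 10 CPM, Cxcl12, Kdr and Cdh5 in HSCs and Stab2, Cxcl12, Kdr, Cdh5 and Col1a1 in MPPs were under the filter and have no value.

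With each group centred on its mean, same-numbered libraries had correlations of -0.19 to 0.19 in HSCs. There PBS 2 and PBS 6 were closest to the MTP10-HDL library of their own number, and the others were not. In MPPs the correlations were -0.17 and -0.03. Centring makes the 2 PBS libraries of MPPs mirror each other, so these values cannot show whether numbers pair the libraries. The replicate block used only libraries whose number occurred in both treatments, which left out PBS 7 in HSCs and MTP10-HDL 1 in MPPs. With the block, 0 genes were called in HSCs and 43 in MPPs, no member among them. Stab2 was at -1.31 and -4.36 and Pdgfrb at 0.80 and 0.94. These fits differ from the main ones in their libraries as well as in the block. Depth limits Lepr, Kitl and, in MPPs, Cxcl12, Kdr and Cdh5, whose libraries hold 0 to 44 counts.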
